A study of Homo sapiens with 14 samples.

Results

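The outer part of the short arm of chromosome 20 was described through the 426 ATAC-seq regions that start below 17 Mb on hg38, out of 65774 regions in the table and beside 1471 regions on the rest of the chromosome. The regions were chosen by their measured accessibility, which differed from Parental along whole stretches in some clones, and the rule points to stretches at 3 to 5 Mb and 12 to 16 Mb and to the genes SEL1L2 and JAG1. The clone-versus-Parental differences below are therefore the values that chose the regions, and they are given as a description without a test. ATAC-seq counts the places where a transposase can insert adapters into open chromatin. The 14 libraries came in pairs from the clones M2, M1, EM3, EM2, EM1 and E and from the line they derive from, Parental, with no treatment in any group. All are SUM149PT, an established inflammatory breast cancer line without oestrogen and progesterone receptors, and each clone group is 1 clone. Nothing states that paired libraries are separate cultures, so the spread between them may be technical.

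A count in a region depends on how many copies of that DNA a cell carries and on how open each copy is. In these data the number of copies and the openness of each copy cannot be told apart. Gene starts that most cells use tend to be open in all cell states, while regions far from genes change with cell type. The arm holds JAG1, a ligand of the Notch receptors, PCNA, the sliding clamp of DNA replication, PLCB1 and PLCB4, phospholipases that act below G protein-coupled receptors, and MACROD2, a very long gene for an ADP-ribose hydrolase that shares its start with SEL1L2.

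Of the 426 regions, 78 lay within 1 kb of an end of a protein-coding gene (gene-end regions) and 348 did not (other regions). They ran from chr20:290153 to chr20:16923205, with a median width of 397 bp against 407 bp over the whole table. The table used for genes holds 119 protein-coding genes here, of which 75 had a gene-end region. A start with 250 bases before it was found in RefSeq (GRCh38.p14) for 49 of these genes. Starts are shown for 5 gene-end regions that lie between the arm's end and the SEL1L2 start and were picked, after their values were seen, because they behaved differently across the clones. Capitals mark the GC box (GGGCGG), the CCAAT box (CCAAT), the TATA box (TATAAA) and the AP-1 site (TGANTCA), searched on both strands with overlapping matches kept. The first lines give the 250 bases before the start of PCNA (chr20:5126623-5126872, minus strand), TMX4 (chr20:8019762-8020011, minus strand) and JAG1 (chr20:10674000-10674249, minus strand). The last lines give the 108 bases between the diverging starts of ESF1 and NDUFAF5 (chr20:13784920-13785027, plus strand) and the 182 bases between those of SEL1L2 and MACROD2 (chr20:13995334-13995515, minus strand).
PCNA: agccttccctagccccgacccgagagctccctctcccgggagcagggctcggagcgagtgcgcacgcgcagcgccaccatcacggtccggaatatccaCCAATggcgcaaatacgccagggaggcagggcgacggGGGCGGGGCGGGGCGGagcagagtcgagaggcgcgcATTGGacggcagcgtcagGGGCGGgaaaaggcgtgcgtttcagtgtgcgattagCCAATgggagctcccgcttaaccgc
TMX4: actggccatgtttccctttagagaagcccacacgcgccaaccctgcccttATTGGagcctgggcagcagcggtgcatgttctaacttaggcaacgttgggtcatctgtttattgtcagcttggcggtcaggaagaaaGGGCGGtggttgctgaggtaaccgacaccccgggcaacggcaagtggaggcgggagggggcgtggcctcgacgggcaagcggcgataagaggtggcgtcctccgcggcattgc
JAG1: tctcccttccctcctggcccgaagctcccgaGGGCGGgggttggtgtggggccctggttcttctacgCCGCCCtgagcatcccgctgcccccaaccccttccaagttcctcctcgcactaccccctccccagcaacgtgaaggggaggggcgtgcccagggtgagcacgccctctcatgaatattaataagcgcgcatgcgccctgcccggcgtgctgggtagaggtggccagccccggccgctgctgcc
ESF1 and NDUFAF5: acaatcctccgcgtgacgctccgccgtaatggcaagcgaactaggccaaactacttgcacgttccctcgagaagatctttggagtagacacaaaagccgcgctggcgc
SEL1L2 and MACROD2: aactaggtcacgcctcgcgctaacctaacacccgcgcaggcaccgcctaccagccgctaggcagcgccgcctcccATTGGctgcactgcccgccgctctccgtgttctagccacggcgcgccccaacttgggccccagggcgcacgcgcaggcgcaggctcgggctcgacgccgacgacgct
The GC box was found 4 times before PCNA, 2 times before JAG1 and 1 time before TMX4, and it is in 42.6% of 35116 promoters of 250 bases. The CCAAT box was found 3 times before PCNA, 1 time before TMX4 and 1 time between SEL1L2 and MACROD2, and it is in 32.0% of promoters. The TATA box, held by 10.7% of promoters, and the AP-1 site, held by 6.57%, are not in these windows. CG pairs numbered 29 before PCNA, 18 before TMX4, 17 before JAG1, 11 between ESF1 and NDUFAF5 and 25 between SEL1L2 and MACROD2. The last 2 windows are shorter, at 108 and 182 bases, so their counts do not compare with those over 250 bases. Over the full 250 bases, the GC box was found 1 time before ESF1 and 2 times before MACROD2, and the CCAAT box 1 time before each. Of these 5 starts, M2 had almost no signal at SEL1L2 and MACROD2 and kept signal at the others.

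The shallowest library, E replicate 1, held 8138944 counts, and the deepest, EM3 replicate 1, held 16786823. Levels are in CPM, counts scaled to the same library size, after TMM scaling, and differences are clone minus Parental on the log2 CPM scale with a prior count of 2. Over all regions the median difference was within 0.01 of 0 in every clone. As a check of the line, the epithelial gene EPCAM averaged 0.764 CPM in M2 and 49.4 CPM in Parental at its gene end, and CDH1, the E-cadherin gene, averaged 0.497 CPM in M2 and 39.9 CPM in Parental. KRT8, another epithelial gene, averaged 39.9 CPM in M2 and 27.3 CPM in Parental. Of the fibroblast markers, PDGFRB averaged 21.1 CPM in M2 and 1.15 CPM in Parental, and COL1A1 averaged 16.3 CPM in M2 and 12.3 CPM in Parental. Of the blood markers, CD3E averaged 18.0 CPM in M2 and 47.6 CPM in Parental, SPI1 averaged 21.5 CPM in M2 and 25.8 CPM in Parental, and PTPRC had no gene-end region. The endothelial markers PECAM1, CDH5 and TIE1 had none either, and the part of such markers in the values below was not tested. E replicate 1 stood apart from E replicate 2 in several stretches of the arm, and values of both are given where this matters.

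**Figure D1:**
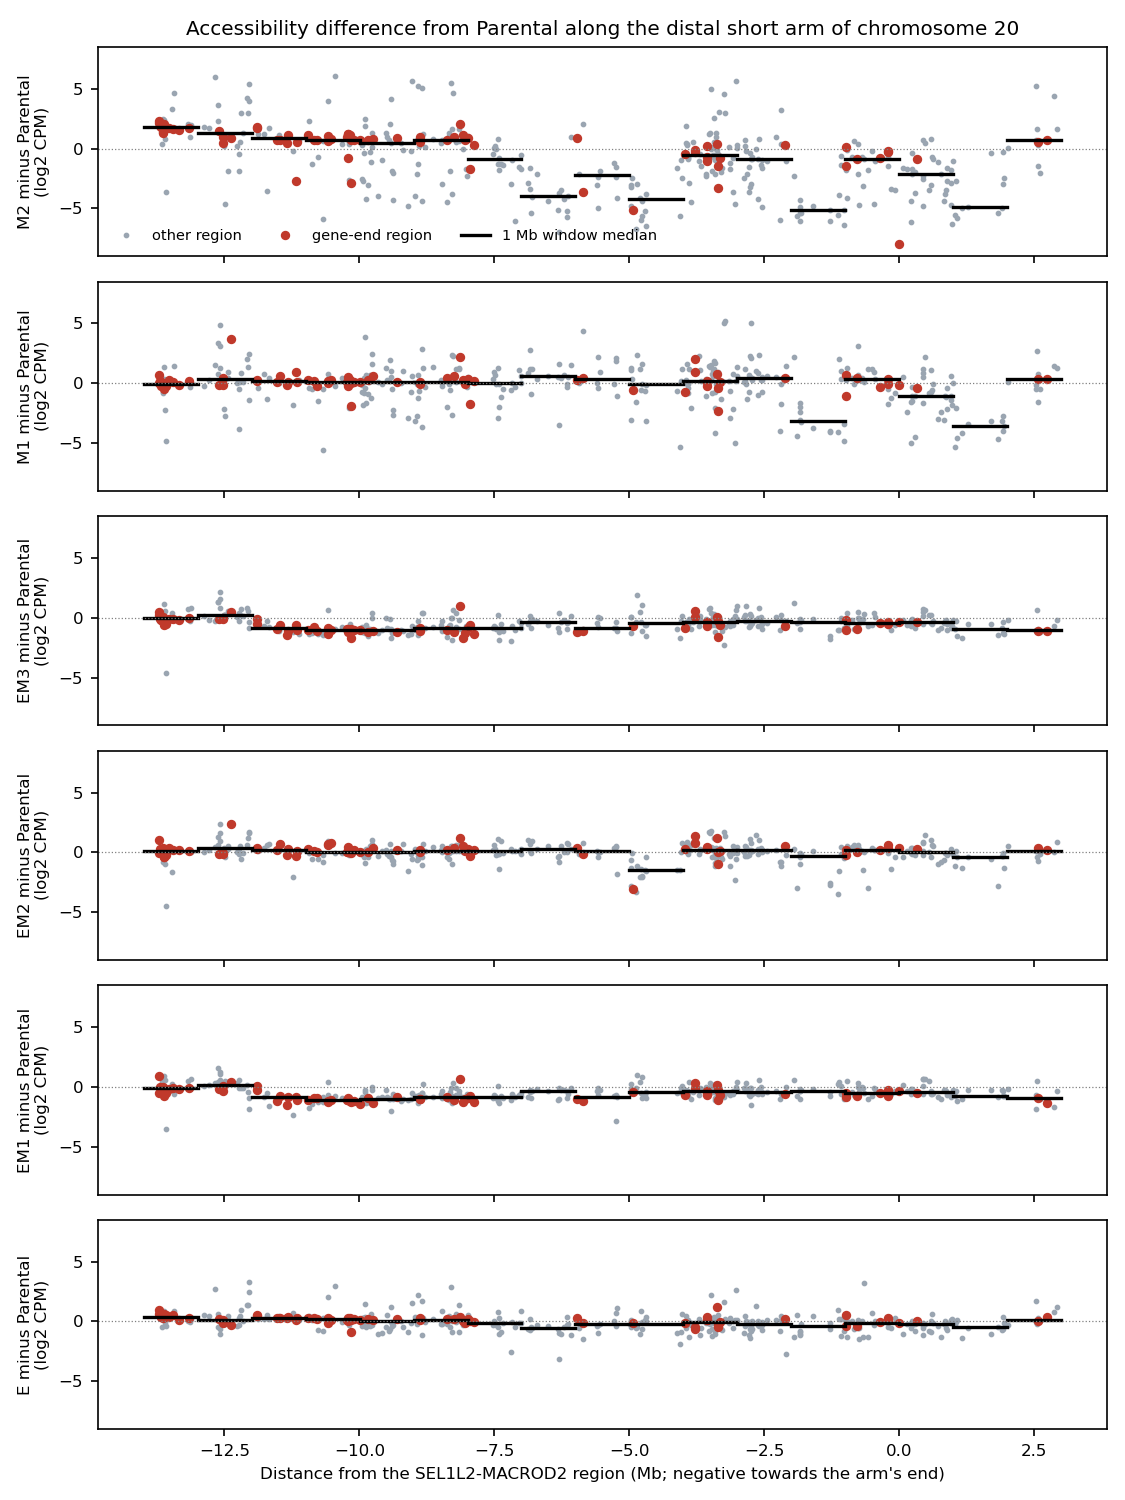
Difference from Parental (log2 CPM, y axis) of each region against its distance in Mb from the SEL1L2 and MACROD2 start (x axis), for the 6 clones. Red points are gene-end regions, grey points other regions and black lines medians of 1 Mb windows. EM3 and EM1 form bands that step down to about -1, while in M2 the red points step down along the arm and many grey points fall far below them.

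In EM3 and EM1 the arm had close to 50% of the Parental signal between 2 and 7 Mb, and a smaller deficit beyond. Splitting the chromosome into segments by their medians gave a first segment near Parental, a second one far below it and the third in between in both clones. In EM3 the second segment held 140 regions, with its first region at chr20:1943717 and its last ending at 6883454, and a median of -0.97 (libraries -0.98 and -0.94). In EM1 it held 143 regions, with its first region at chr20:1934714 and its last ending at 6993407, and a median of -0.93 (libraries -0.99 and -0.88). The last region before it ended at 1935163 in EM3 and at 1907901 in EM1. The region chr20:1934714-1935163 was thus the last one outside in EM3 and the first one inside in EM1. The 2 clones were set against the same Parental libraries, so their values are given side by side only.

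The regions of this step were spread about as widely as those on the rest of the chromosome. From 17 Mb to its end the interquartile range was 0.51 in EM3 and 0.43 in EM1. EM2 and E, without such a step, had 0.44 each from 2 to 7 Mb. Over the step the interquartile range was 0.44 in EM3 and 0.38 in EM1, and 130 of 140 and 136 of 143 regions were below Parental. Gene-end and other regions gave close values, at -1.04 and -0.94 in EM3 and at -1.06 and -0.90 in EM1. Between 3 and 5 Mb the medians were -1.05 in EM3 and -1.03 in EM1, and 60 of 66 regions were below -0.5 in each. The summed signal between 2 and 7 Mb was 953 and 960 CPM in EM3, 956 and 958 CPM in EM1, and 1836 and 1941 CPM in Parental. This is 50.6% of Parental in EM3 and 50.7% in EM1, with no overlap between either clone and Parental. The lowest window of 1 Mb on this arm was -1.06 in EM3 and -1.07 in EM1, and the lowest of 2590 windows elsewhere with at least 5 regions was -0.96 in EM3 and -1.02 in EM1. Of the windows elsewhere, 1.35% in EM3 and 1.04% in EM1 were below -0.5.

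Genes of DNA replication, RNA processing and metabolism lie between 2 and 7 Mb. Of 50 genes listed by role, 19 had a gene-end region here, and all 19 were below Parental in EM3, between -1.47 and -0.81, and in EM1, between -1.55 and -0.81. The region shared by the starts of PCNA and CDS2 (chr20:5126459-5127230) had 22.9 and 25.3 CPM in EM3, 21.0 and 22.5 CPM in EM1, and 43.8 and 42.1 CPM in Parental. PANK2 encodes a mitochondrial pantothenate kinase, which starts the synthesis of coenzyme A. Its start region had 23.8 and 23.3 CPM in EM3, 22.9 and 19.4 CPM in EM1, and 42.0 and 52.7 CPM in Parental. In both regions the EM3 and EM1 libraries lay well under the Parental ones, without overlap. NOP56, a core protein of box C/D snoRNPs, differed by -1.47 in EM3 and by -1.55 in EM1. The start shared by MCM8, a helicase used in recombination repair, and TRMT6, a tRNA methyltransferase subunit, differed by -1.27 in EM3 and by -1.02 in EM1. The 4 listed genes of mitochondria and metabolism, PANK2, MAVS, SMOX and ITPA, lay between -1.18 and -0.92 in EM3 and between -1.16 and -0.95 in EM1. IDH3B and CRLS1, also metabolic genes, stood in the list of DNA replication, repair and cell division. IDH3B was at -1.10 in EM3 and -0.81 in EM1, and CRLS1 at -0.88 and -0.94. FERMT1, which encodes the integrin activator kindlin-1, had 18.5 and 16.1 CPM at its gene end in EM3, 19.8 and 17.3 CPM in EM1, and 40.2 and 50.7 CPM in Parental. The well-covered gene ends of TMEM230 (a membrane protein of vesicles), GNRH2 (a gonadotropin-releasing hormone, whose region MRPS26 shares) and GPCPD1 (a glycerophosphocholine phosphodiesterase) lay between -1.11 and -0.85 in both clones.

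Not every gene end of the segment followed. The region at SHLD1, part of the shieldin complex of DNA repair, was higher than Parental in both, by 0.99 in EM3 and 0.63 in EM1. This region was also above Parental in M2, M1, EM2 and E, by 2.04, 2.16, 1.21 and 0.36. Over all 6 regions of SHLD1 the medians were -0.50 in EM3 and -0.45 in EM1, with 4 and 5 regions below Parental. At the segment's outer edge, the start of STK35, a kinase gene, differed by -0.12 in EM3 and by -0.26 in EM1, while the next start, of the splicing protein gene SNRPB, differed by -0.96 and by -1.15. When only gene-end regions were segmented, the step began between STK35 and SNRPB in EM1. In EM3 it began between 2 neighbouring regions of STK35, at chr20:2101655 and chr20:2102238.

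Beyond 7 Mb both clones were lower than Parental by a smaller amount. The third of these segments reached chr20:17844176 in EM3, with a median of -0.42 over 256 regions, and chr20:17874516 in EM1, with a median of -0.44 over 257 regions. Of these regions 234 in EM3 and 232 in EM1 started below 17 Mb. The chromosome from 17 Mb to its end had medians of 0.02 in EM3 and -0.01 in EM1. Between 7 and 17 Mb the windows were uneven, at -0.36 in both clones between 7 and 8 Mb, and at -1.0 in EM3 and -0.93 in EM1 between 16 and 17 Mb. Gene-end regions placed the inner limit of the larger step further along than all regions did. TMX4, a thioredoxin-like membrane protein gene of the endoplasmic reticulum, was still at -1.18 in EM3 and -1.03 in EM1, and PLCB1 was at -1.07 and -1.17. Only 3 gene-end regions lay between 7 and 10 Mb, and the last, at PLCB4, was at -0.67 in EM3 and -0.42 in EM1. The 43 other regions there had medians of -0.40 in EM3 and -0.41 in EM1. With gene-end regions alone, the step of about 1 ended after PLCB1 in EM1 and after ANKEF1 in EM3, and the medians beyond it were -0.55 in EM1 and -0.47 in EM3. KIF16B, a kinesin of early endosomes, and SNRPB2, a U2 snRNP protein gene, lie between 16 and 17 Mb and were again at -1.12 and -1.09 in EM3 and at -0.93 and -1.36 in EM1.

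**Figure D2:**
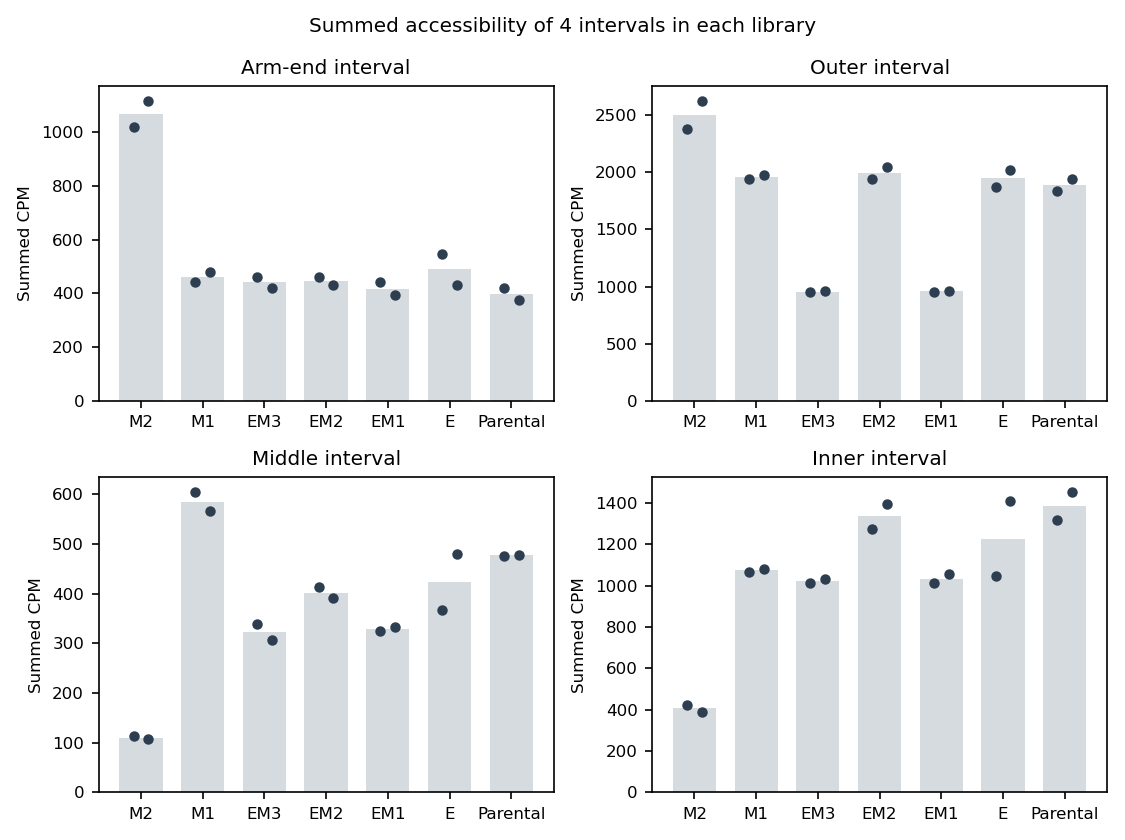
Summed CPM (y axis) of the regions of 4 intervals in each library, with the arm-end interval from 0 to 2 Mb, the outer from 2 to 7 Mb, the middle from 7 to 10 Mb and the inner from 12 to 16 Mb. Points are libraries and bars group means. EM3 and EM1 average 956 and 957 CPM in the outer interval, against 1888 CPM in Parental, and M2 is highest in the first 2 intervals and lowest in the last 2.

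M2 was high at the arm's end and low further in, with a far wider spread between neighbouring regions. Its window medians ran from 1.78 in the first Mb through 1.31, 0.87, 0.71, 0.51 and 0.72, then fell to -0.88 between 6 and 7 Mb. Segmentation placed the change between chr20:5951007 and chr20:5973239. The 173 regions before it had a median of 0.78 and the 242 regions after it, up to chr20:15942529, had a median of -1.62 (libraries -1.59 and -1.67). The interquartile range was 3.20 over these 242 regions and 1.35 over the 173 before the change. From 0 to 2 Mb the summed signal was 1019 and 1116 CPM in M2, against 420 and 376 CPM in Parental, or 268%. From 7 to 10 Mb it was 113 and 108 CPM in M2, against 477 and 478 CPM in Parental, or 23.0%. The M2 libraries lay outside the range of the Parental libraries in both intervals. M2 was also low and widely spread on the chromosome from 17 Mb to its end. Its median there was -0.49, with an interquartile range of 2.22 and 74.4% of the summed Parental signal. Gene-end regions there were at -0.17 and other regions at -0.61. Of 2590 windows elsewhere in the genome, 28.6% were below -0.5 in M2.

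The gene ends of M2 were split at other places than all regions were, and gave no low segment. The 15 gene-end regions between C20orf96 and FKBP1A, which encodes the rapamycin-binding prolyl isomerase FKBP12, had a median of 1.76 (libraries 1.61 and 1.88) and all were above Parental. FKBP1A itself had 32.0 and 40.3 CPM in M2, against 13.8 and 12.1 CPM in Parental. The next 37, between NSFL1C and CRLS1, had a median of 0.78 (libraries 0.69 and 1.01), and 3 of them were below Parental. STK35 lies among them but was at 1.75. NSFL1C, which encodes a cofactor of the ATPase p97, had 18.8 and 26.7 CPM in M2, against 16.8 and 14.9 CPM in Parental, a difference of 0.50. PCNA and CDS2 had 82.2 and 86.9 CPM in M2, above both Parental libraries. All 19 listed genes between 2 and 7 Mb were above Parental in M2, between 0.32 and 1.25. CRLS1, the cardiolipin synthase gene, was at 0.92, and LRRN4, the next gene with a gene-end region, at -1.71. The third segment of gene ends ran from LRRN4 to KCNG1, on the long arm, and its 230 regions, 26 of them below 17 Mb, had a median of -0.01. As most of that segment lies beyond 17 Mb, its median says little about the stretch from 6 to 16 Mb. The 25 gene-end regions within the segment whose median was -1.62 over all regions had a median of -0.68. All 13 listed genes between 7 and 16 Mb, in 11 regions, were below Parental in M2, between -7.98 and -0.21. TMX4 and BTBD3, which were not listed, were above Parental.

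Between 6 and 16 Mb the gene ends of M2 differed widely from each other. TMX4 had 64.8 and 59.6 CPM in M2, against 33.2 and 35.1 CPM in Parental. The PLCB1 gene end, the next one along, had 0.802 and 1.83 CPM in M2, against 17.4 and 16.9 CPM in Parental. The PLCB4 gene end had 0.229 CPM in each M2 library, which is 2 and 3 counts, against 14.1 and 14.2 CPM in Parental. TMX4 was thus above Parental in both M2 libraries, and both phospholipase genes were far below it. From 10 to 15 Mb, gene ends such as SLX4IP, a partner of the SLX4 nuclease scaffold, at -1.03, TASP1, the protease that cleaves the MLL protein, at -0.77, and FLRT3, an adhesion protein, at -0.89 were moderately lower. BTBD3, a BTB-domain gene, was at 0.29, and KIF16B, beyond 16 Mb, was at 0.58.

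**Figure D3:**
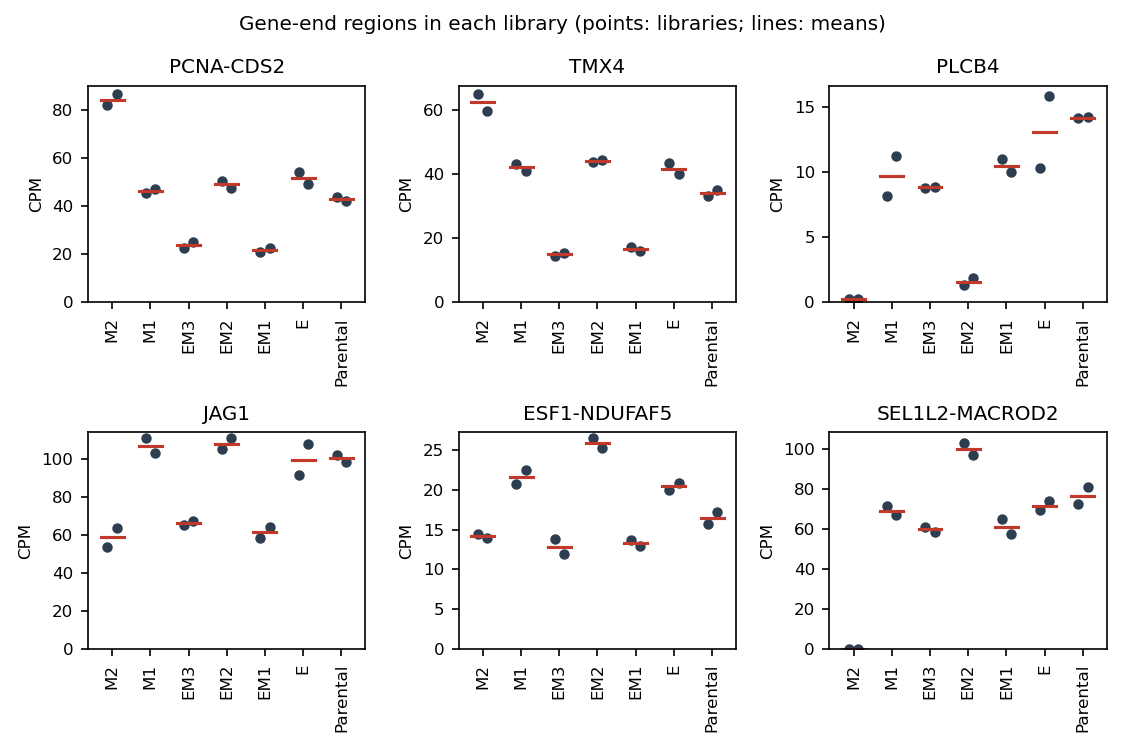
CPM (y axis) of 6 gene-end regions in each library of the 7 groups, ordered along the arm. Points are libraries and lines group means. The SEL1L2 and MACROD2 region is near 0 in M2 and between 57.5 and 103 CPM in every other library, while ESF1 and NDUFAF5 keep 14.4 and 13.9 CPM in M2.

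The JAG1 start region (chr20:10673922-10675236) lies outside both stretches that the rule points to. It had 53.8 and 63.7 CPM in M2, 111 and 103 CPM in M1, 65.4 and 67.1 CPM in EM3, 105 and 111 CPM in EM2, 58.4 and 64.3 CPM in EM1, 91.3 and 108 CPM in E, and 102 and 98.6 CPM in Parental. M2, EM3 and EM1 formed a low set whose libraries did not overlap the other 4 groups, at -0.78, -0.60 and -0.71, and the remaining clones lay within 0.10 of Parental. The region just past the other end of the gene (chr20:10636379-10636921) followed another order. It had 1.95 and 2.83 CPM in M2, 4.89 and 4.95 CPM in M1, 8.22 and 7.86 CPM in EM3, 11.9 and 13.8 CPM in EM2, 12.2 and 10.5 CPM in EM1, 17.5 and 23.1 CPM in E, and 25.4 and 24.1 CPM in Parental. All clone libraries were below both Parental libraries there, M1 and EM2 included, at -2.29 and -0.94. A second region, which overlaps this end of the gene (chr20:10637027-10637686), averaged 14.9 CPM in M2, 31.5 in M1, 32.6 in EM3 and 41.3 in EM2. It averaged 33.0 CPM in EM1, 28.8 in E and 40.3 in Parental, so EM2 was not lower in that second region. In all, 8 regions had JAG1 as their nearest gene.

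The shared start of SEL1L2, a relative of the endoplasmic reticulum degradation protein SEL1L, and MACROD2 (chr20:13995038-13995748) was nearly without signal in M2. It had 1 and 2 counts in the M2 libraries, against 797 and 952 counts in Parental, which is 0.115 and 0.153 CPM against 72.3 and 80.8 CPM. The Parental level was 558 times that of M2, with an exact 95% interval of 190 to 2706 that covers counting error only. The other clones had 71.2 and 66.8 CPM in M1, 61.1 and 58.5 CPM in EM3, 103 and 97.1 CPM in EM2, 64.8 and 57.5 CPM in EM1, and 69.4 and 73.7 CPM in E. Only M2 was close to 0, among the 7 groups. The next gene end towards the arm's end, the shared start of ESF1, a nucleolar protein of rRNA processing, and NDUFAF5, an assembly factor of respiratory complex I, had 14.4 and 13.9 CPM in M2, against 15.7 and 17.2 CPM in Parental, a difference of -0.21.

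**Figure D4:**
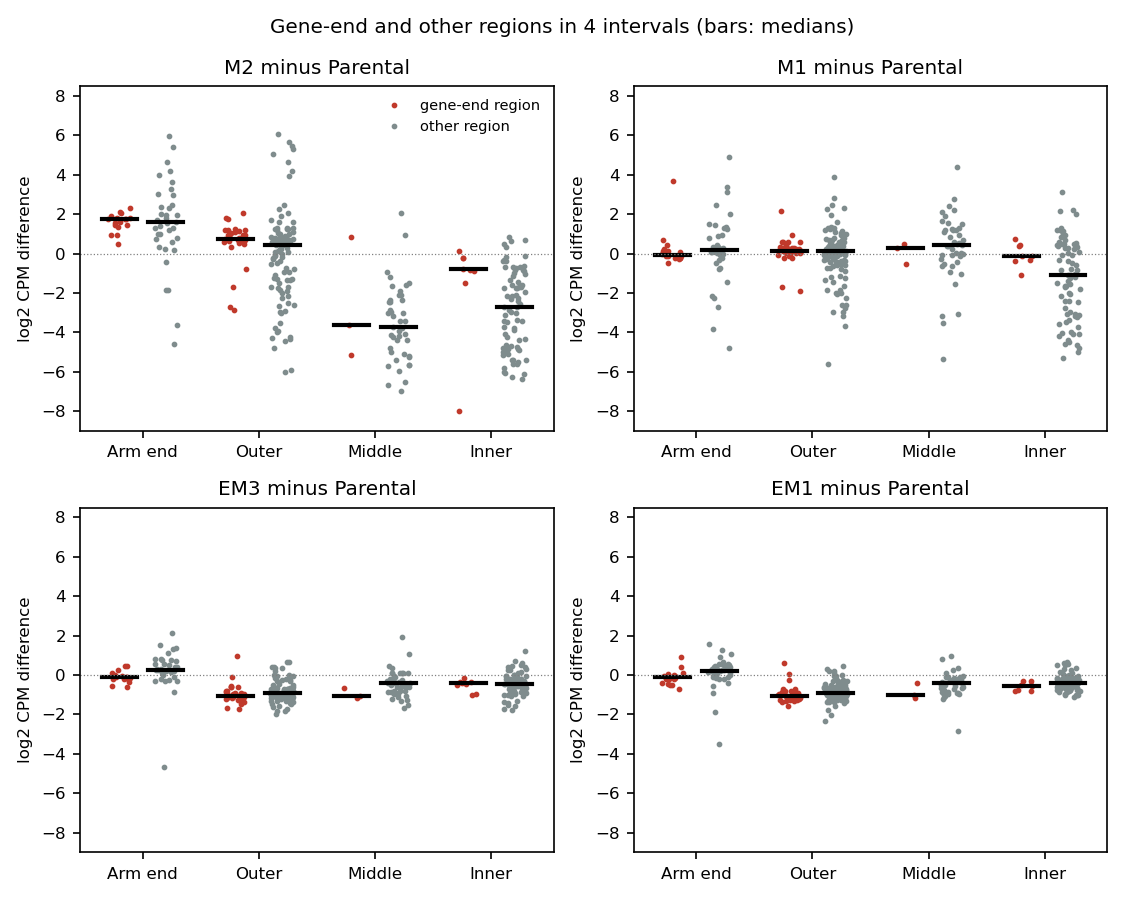
Difference from Parental (log2 CPM, y axis) of gene-end regions (red) and other regions (grey) in the arm-end, outer, middle and inner intervals, for M2, M1, EM3 and EM1. Black bars are medians. In the inner interval the other regions of M2 and M1 lie below the gene-end regions, at -2.72 against -0.80 and at -1.09 against -0.13, while the 2 kinds lie at -0.43 against -0.41 in EM3 and at -0.39 against -0.54 in EM1.

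In the stretch from 12 to 16 Mb, M2 and M1 had less signal than Parental, above all away from gene ends. M2 had a median of -2.37 over 86 regions (libraries -2.44 and -2.63), with -0.80 at 8 gene-end regions and -2.72 at 78 other regions. M1 had a median of -0.95 (libraries -0.83 and -0.91), with -0.13 at the gene-end regions and -1.09 at the others. The summed signal was 425 and 390 CPM in M2, 1067 and 1083 CPM in M1, and 1320 and 1451 CPM in Parental. EM3 and EM1 both had a median of -0.43 here. Their summed signal was 1011 and 1034 CPM in EM3 and 1011 and 1057 CPM in EM1, below both M1 libraries. M2 had 14 of the 86 regions with 3 or fewer counts over both libraries, and M1 had 0.

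The low regions of M2 and M1 included a stretch without gene-end regions and the body of a long gene. Of 17 regions between BTBD3 and SPTLC3, all away from gene ends, 13 in M2 and 9 in M1 were below -3, and the medians were -5.09 in M2 and -3.08 in M1. Of 45 regions over MACROD2, 18 in M2 and 12 in M1 were below -3, with medians of -2.57 and -1.39. Over PLCB4, by contrast, all 9 regions were below Parental in M2, with a median of -5.18, while M1 had a median of -0.14. In M1 the window medians were -3.15 between 12 and 13 Mb, 0.37 in the next Mb, -1.05 between 14 and 15 Mb and -3.56 between 15 and 16 Mb. M1 was not split into segments by the segmentation, in which the noise between neighbouring regions sets the size a step must have. On this arm 4 of 17 windows in M2 and 2 of 17 in M1 were below -3, and of 2590 windows elsewhere 2.55% in M2 and 0.232% in M1 were. The lowest window in M2 was -5.12 on this arm and -5.32 elsewhere, while in M1 it was -3.56 on this arm and -3.20 elsewhere.

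In EM2 1 of the 17 windows was below -0.5, near PLCB4, while single regions elsewhere on the arm lay further from Parental in both directions. That window, between 9 and 10 Mb, had a median of -1.50 (libraries -1.49 and -1.57), and all 9 regions over PLCB4 were below Parental, with a median of -1.54. Of 2590 windows elsewhere in the genome, 7.95% were below -0.5 in EM2, with the lowest at -2.52. The PLCB4 gene end had 1.31 and 1.87 CPM in EM2, against 14.1 and 14.2 CPM in Parental, without overlap. The other clones besides M2 kept between 8.19 and 15.8 CPM there. From 12 to 16 Mb the EM2 median was -0.01, but 17 of 86 regions were below -0.5 and 2 were below -3. Both of these lie between BTBD3 and SPTLC3, where the median was -0.25 and the lowest region was at -3.45, and the lowest region over MACROD2 was at -2.81. The gene end of SNAP25, a protein of synaptic vesicle fusion, had 31.1 and 19.4 CPM in EM2, against 10.2 and 8.82 CPM in Parental. The SHLD1 gene end had 20.3 and 10.3 CPM in EM2, against 6.35 and 6.02 CPM in Parental, so both gene ends were above Parental without overlap. The SEL1L2 and MACROD2 start was highest in EM2, at 0.38 above Parental.

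E had no segment apart from the rest of the chromosome. Its lowest window was -0.52, between 7 and 8 Mb, and its libraries disagreed there, at -0.83 in replicate 1 and -0.23 in replicate 2. Of 2590 windows elsewhere in the genome, 8.49% were below -0.5 in E, with the lowest at -3.63. From 12 to 16 Mb the summed signal was 1047 CPM in E replicate 1 and 1408 CPM in E replicate 2, against 1320 and 1451 CPM in Parental. From 0 to 2 Mb it was 547 CPM in E replicate 1 and 433 CPM in E replicate 2, against 420 and 376 CPM in Parental. E replicate 1 was high at the arm's end and low further in, and E replicate 2 was close to Parental. Without E replicate 1 the median from 12 to 16 Mb was -0.04, and without E replicate 2 it was -0.36. E replicate 1 held 8138944 counts and E replicate 2 held 8997141, and whether depth plays a part was not tested.

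At the limit of 17 Mb, the last region inside (chr20:16922850-16923205) differed by 1.63 in M2, -0.16 in EM3 and -0.35 in EM1. The first region outside (chr20:17059484-17059824) differed by 1.16 in M2, -0.67 in EM3 and -1.10 in EM1.

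Calls by edgeR's quasi-likelihood test at a Benjamini-Hochberg adjusted p under 0.05 over all 65771 regions tested are given as a description only. All 426 regions passed the filter on low counts. In M2, 194 regions were lower and 138 higher, where 34.9% and 32.2% of all regions were called, or 67% in either direction. In M1, 88 were lower and 88 higher, with 23.4% and 19% over all regions, or 42.4% in either direction. In EM3, 72 were lower and 2 higher, with 1.26% and 1.85% over all regions, or 3.11% in either direction. In EM2, 27 were lower and 15 higher, with 6.17% and 3.02% over all regions, or 9.19% in either direction. Of the 27, 10 lay from 7 to 10 Mb and 11 from 12 to 16 Mb. In EM1, 34 were lower and 0 higher, with 0.287% and 0.341% over all regions, or 0.628% in either direction. The 0 higher in EM1 compares with 7 at an unadjusted p under 0.05 by edgeR and 0 by the DESeq2 Wald test. In E, 12 were lower and 12 higher, with 6.31% and 5.26% over all regions, or 11.6% in either direction.

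The numbers called in EM3, EM1, EM2 and E depended on single libraries. EM3 had 74 calls in all, which became 7 and 14 without its own replicates 1 and 2, and 6 and 9 without Parental replicates 1 and 2. EM1 had 34 calls, which became 0 without either of its own libraries, 2 and 0 without Parental replicates 1 and 2, and 18 and 21 without EM3 replicates 1 and 2. EM2 had 42 calls, which became 15 without its replicate 1 and 17 without either Parental library. E had 24 calls, which became 13 and 45 without its replicates 1 and 2, and 9 and 3 without Parental replicates 1 and 2. With the replicate number as a block, EM3 had 131 calls, EM2 70, EM1 80 and E 57. The medians of EM3 and EM1 between 3 and 5 Mb moved far less, staying between -1.10 and -1.0 when each library was left out.

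JAG1 was set beside the other genes of its pathway, a list of 29 Notch genes of which 26 had regions within 50 kb. Outside chromosome 20 the list had 81 regions, which the choice of regions did not use. In M2, 36 of these were higher and 20 lower, where 32.2% of all regions were called higher and 34.9% lower, with a median log2 fold change of 0.47 against -0.01 over all regions. The 8 JAG1 regions gave 1 higher and 6 lower in M2, with a median of -1.11. In EM3, 3 of the 81 were higher and 1 lower, where 1.85% and 1.26% of all regions were, and 2 of the 8 JAG1 regions were lower. In EM1, 0 of the 81 were called, where 0.341% of all regions were higher and 0.287% lower, and 2 JAG1 regions were lower. In M1, 13 of the 81 were higher and 16 lower, where 19% and 23.4% of all regions were. There 1 JAG1 region was higher and 2 were lower. In EM2, 3 of the 81 were higher and 10 lower, where 3.02% and 6.17% of all regions were, and 1 JAG1 region was lower. In E, 4 of the 81 were higher and 3 lower, where 5.26% and 6.31% of all regions were, and 0 JAG1 regions were called. In M2 the JAG1 median thus had the opposite sign to the median of the rest of the list, and the difference itself was not tested.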

How the data were processed

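ATAC-seq reads were counted by the authors, who deposited raw counts per library in 65774 regions. The submitters' processing notes list the aligner Bowtie2 2.2.6, the peak caller MACS2 2.1.1, the counter featureCounts and the trimmer cutadapt 1.9.1, on hg38, without saying which step each made. The merging of peaks into regions is not described there. The interval file was left aside, and so were the 7 peak lists, since some are named for another group than the library they are filed under. The columns of the count table name group and replicate as the labels do and were assigned by these names.

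Counts were scaled by TMM and tested with edgeR 4.0.16 (R 4.3.3, quasi-likelihood F test, 7 group means over 14 libraries, 65771 regions after filterByExpr with a minimum count of 10, Benjamini-Hochberg over all of them). Replicates varied by 0.208 (edgeR's common coefficient of variation), and p-values reflect the spread among these libraries alone. Each segment of the whole chromosome was split where the sum of absolute deviations from its medians fell most, with at least 5 regions a segment. The fall had to exceed a penalty of 3 times the noise times the natural log of the number of regions. The noise was the median absolute difference of neighbouring regions, and neighbouring segments within 0.3 were merged. Gene ends come from a RefSeq table of GRCh38.p14.

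Genes named are SEL1L2 and JAG1, the 5 gene-end regions with the highest Parental level in each shifted segment, those at segment limits, and genes of 5 role lists; PLCB4, SHLD1, KIF16B and others at turning points were also named after their values were seen. The regions and lists were chosen with earlier results of these data known, and the intervals 0 to 2, 2 to 7 and 7 to 10 Mb after the windows were seen. Alternatives were library totals, DESeq2 1.42.0 size factors and Wald test, loess offsets, no filter, a prior count of 0.5, a log2 limit of 1, other windows and segmentation settings, a replicate block, only the 4 libraries compared, and leaving out each library. The fit and the segmentation were tested on simulated data.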

Additional observations from a re-analysis of the deposited data

How the results depend on the processing

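The medians of EM3 and EM1 between 3 and 5 Mb, of M2 from 0 to 2, 7 to 10 and 12 to 16 Mb and of M1 from 12 to 16 Mb kept their sign under every alternative. Between 3 and 5 Mb, where EM2 and E were near 0, other regions alone gave -0.06 in EM2 and 0 in E. Between 3 and 5 Mb, EM3 and EM1 were both at -1.0 with library totals, and EM1 was at -1.07 with a prior count of 0.5 and at -1.09 over gene-end regions. Relative to chromosome 20 from 17 Mb, M2 was at 2.15 from 0 to 2 Mb, -3.19 from 7 to 10 Mb and -1.88 from 12 to 16 Mb. A prior count of 0.5 gave -4.01 and -2.55 in M2 in the last 2 of these stretches. From 12 to 16 Mb, M2 was at -0.80 over gene-end and -2.72 over other regions, and M1 at -0.13 and -1.09. The lowest window became -3.10 in M2, -1.49 in M1 and -0.52 in EM2 with 2 Mb windows, and -4.19 in M1 with 0.5 Mb windows. The cause was not tested.

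The labels number the libraries of each group 1 and 2 without saying what a number shares, so the design does not pair them. As a hint from the data, the deviations of same-numbered libraries, each clone against the same Parental pair, correlated at 0.108 to 0.373 in the 6 clones. The replicate block gave 131 calls in EM3, 70 in EM2, 80 in EM1 and 57 in E, against 74, 42, 34 and 24 without it. The DESeq2 Wald test gave 69 in EM1 and 38 in E, and the fit on only the 4 libraries compared gave 125 in EM3.

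Leaving out each library gave 285 to 335 calls in M2, 136 to 192 in M1, 6 to 100 in EM3, 15 to 50 in EM2, 0 to 44 in EM1 and 3 to 45 in E. The medians then ranged from -1.10 to -1.02 in EM3 and -1.10 to -1.0 in EM1 between 3 and 5 Mb. In M2 they ranged from 1.44 to 1.81 between 0 and 2 Mb, from -3.72 to -3.52 between 7 and 10 Mb and from -2.63 to -2.32 between 12 and 16 Mb, where M1 ranged from -0.97 to -0.83. With a penalty of 5, the inner limit of the low stretch of M2 was lost. Segments of gene-end regions alone were added after the data were seen. In M2, 33 of the 426 regions had 3 or fewer counts over both libraries, so the size of their differences is limited by depth.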
